A study of Mus musculus with 10 samples.

Results

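In mouse embryonic stem cells the HoxB, HoxC and HoxD clusters were examined by Hi-C, each cluster with 1 Mb of flank on each side. The clusters were taken at 96.05 to 96.23 Mb of chromosome 11 (HoxB), 102.75 to 102.87 Mb of chromosome 15 (HoxC) and 74.50 to 74.61 Mb of chromosome 2 (HoxD), in mm9. Their members given for this work were Hoxb1, Hoxb9, Hoxb13, Hoxc4, Hoxc9, Hoxc13, Hoxd1, Hoxd9 and Hoxd13. All deposited topologically associating domains (TADs, stretches of chromatin whose parts contact each other more than their surroundings) that overlapped these windows were taken, 132 of 41342, as were all listed interactions (pairs of 10 kb bins) with an end in them, 100 of 17029. HoxB held 73 of the TADs and 35 of the interactions, HoxC 13 and 28, and HoxD 46 and 37.

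Hox genes encode homeodomain transcription factors that give cells their position along the body axis. In each cluster the genes stand in the order in which they are used from head to tail, with the gene numbered 13 at the posterior end. In embryonic stem cells the clusters are known as largely silent and covered by Polycomb proteins. HoxD is also known in limbs and other embryonic tissues for a regulatory domain on each side, one contacting the Hoxd13 end and the other the Hoxd1 end.

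The cells were the line ES-E14TG2a, grown without feeder cells with LIF and the inhibitors CHIR99021 and PD0325901. There were 5 genotypes with 2 libraries each, namely WT and cells with the enhancers E1, E2, E3, or E1 and E3 together deleted (labelled E1-KO, E2-KO, E3-KO and, for the pair, E1&E3-dKO). The labels do not say where these enhancers lie, which gene they act on, or whether the replicates were separate clones or cultures, so p-values measure the spread between these libraries, which may be technical. The assay was exo-Hi-C, in which an exonuclease step after ligation removes linear DNA. Total reads per library are unknown from these files. The lists held 466 to 6014 interactions and 2715 to 7962 TADs per library, and the depth recovered from the interaction lists, as the contacts that an average pair of bins 1 Mb apart should have, ran from 0.0147 to 0.246. E2-KO replicate 1 stood apart with the lowest depth, the longest TAD list, the shortest TADs (median 90 kb against 120 to 260 kb) and the highest scores (median 2.05 against 1.67 to 1.73).

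In the RefSeq gene table of GRCm38.p6 the clusters hold 28 Hox genes, 10 in HoxB, 9 in HoxC and 9 in HoxD, and 5 microRNA genes. All clusters run the same way along their chromosomes, with Hoxb13, Hoxc13 and Hoxd13 at the low-coordinate end and Hoxb1, Hoxc4 and Hoxd1 at the other. The sides of a boundary are named below by these end genes. The table is of another build than the deposited positions, so it was used for names and order only and no gene was placed at a boundary. The next genes outside were Ttll6 and Skap1 around HoxB, Calcoco1 and Smug1 around HoxC, and Evx2 and Mtx2 around HoxD.

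The promoters of the genes at the ends of HoxD are shown because a boundary lay inside this cluster in all 10 libraries. They are RefSeq sequences of GRCm38.p6 from 250 bases before to 50 after the gene start, on the plus strand, chr2:74667975-74668274 for Hoxd13 and chr2:74762730-74763029 for Hoxd1. Capitals mark matches to AGGGGGC, a core of the motif of CTCF (a protein found at many TAD boundaries), searched on both strands.
Hoxd13: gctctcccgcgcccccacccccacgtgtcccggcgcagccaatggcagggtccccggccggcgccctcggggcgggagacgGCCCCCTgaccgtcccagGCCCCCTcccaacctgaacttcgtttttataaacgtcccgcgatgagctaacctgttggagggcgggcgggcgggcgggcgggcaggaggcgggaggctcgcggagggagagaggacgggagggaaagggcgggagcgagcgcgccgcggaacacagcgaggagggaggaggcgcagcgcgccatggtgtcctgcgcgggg
Hoxd1: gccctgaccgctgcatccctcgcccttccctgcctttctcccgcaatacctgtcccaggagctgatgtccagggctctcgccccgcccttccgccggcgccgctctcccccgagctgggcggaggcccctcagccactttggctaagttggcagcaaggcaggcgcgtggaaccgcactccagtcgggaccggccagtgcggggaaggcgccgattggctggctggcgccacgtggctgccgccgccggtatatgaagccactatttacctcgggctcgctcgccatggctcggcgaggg
The Hoxd13 promoter held 2 matches, both on the minus strand as GCCCCCT, which started at -169 and -151 relative to the gene start. The Hoxd1 promoter held none. Of 14 promoters matched to 13 of the 28 Hox genes, 5 of the 9 members among them, 1 held the letters, against 10.6% of all 32851 promoters in the table. The median ratio of observed to expected CpG over the 14 was 0.583, from 0.257 to 0.970, against 0.384 over all promoters. For Hoxd13 it was 0.904 and for Hoxd1 0.805.

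The microRNAs show how the clusters resemble each other. Mature sequences of RefSeq (GRCm38.p6) were found for all 5 genes, and capitals mark the seed, bases 2 to 8.
mmu-miR-10a-5p (Mir10a, in HoxB): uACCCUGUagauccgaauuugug
mmu-miR-10b-5p (Mir10b, in HoxD): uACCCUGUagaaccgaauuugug
mmu-miR-196a-5p (Mir196a-1 in HoxB and Mir196a-2 in HoxC): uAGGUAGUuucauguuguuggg
miR-10a-5p and miR-10b-5p have the same seed and differ at 1 base, U12A counted from the 5′ end of miR-10a-5p. miR-196a-5p has the same mature sequence from both its genes. MicroRNA levels were not measured here.

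A TAD boundary (an end of a listed TAD) lay inside HoxD in all 10 libraries. The boundary lay at 74.52 Mb, 20 kb from the Hoxd13 end of the 110 kb cluster, and the deposited ends ran from 74.50 to 74.53 Mb. A TAD from there across the Hoxd1 end to 74.99 to 75.01 Mb was listed in every library, 475 kb ± 8.50 long (SD, n = 10). It covered 80 to 90 kb of the cluster. None of the 132 TADs spanned a whole Hox cluster.

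The TAD on the Hoxd1 side had a score (the authors' value per TAD, at least 1.5 in all lists) of 1.95 and 2.32 in the WT libraries. E1-KO had 2.29 and 2.27, E3-KO 2.23 and 2.16, E1&E3-dKO 1.98 and 2.24, and E2-KO 2.61 and 2.11. The highest value came from E2-KO replicate 1 and the lowest from WT replicate 1, and 7 of the 8 knockout values lay between those of the WT libraries. The WT mean was 2.14 ± 0.260 (SD, n = 2) and the mean over knockouts 2.24 ± 0.181 (SD, n = 8). Within its own library this TAD ranked between the 86.2 and 97.8 percentile by score. In E2-KO replicate 1, where scores were high throughout (median 2.05), the 2.61 ranked at the 88.2 percentile. The 1.95 of WT replicate 1 ranked at 89.2 and the 2.32 of WT replicate 2 at 97.8, so the highest score was not the highest rank.

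On the Hoxd13 side the pattern varied more. The TAD that ended at the boundary began between 73.79 and 73.87 Mb in both WT, both E1-KO, E2-KO replicate 2, E3-KO replicate 1 and E1&E3-dKO replicate 1. Its length in WT was 660 and 670 kb, in E1-KO 730 and 670 kb, and 650, 660 and 670 kb in the other 3 libraries in the order given. E2-KO replicate 1 held 74.40 to 74.50 Mb in its place and E1&E3-dKO replicate 2 held 74.35 to 74.51 Mb, 100 and 160 kb long. E3-KO replicate 2 had no TAD ending at the boundary from that side. In each of these 3 genotypes the other library held the long TAD. Both E2-KO lengths, 100 and 650 kb, lay below those of WT. Scores on this side ran from 1.59 to 2.14 with a median of 1.67 over 9 libraries.

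**Figure D1:**
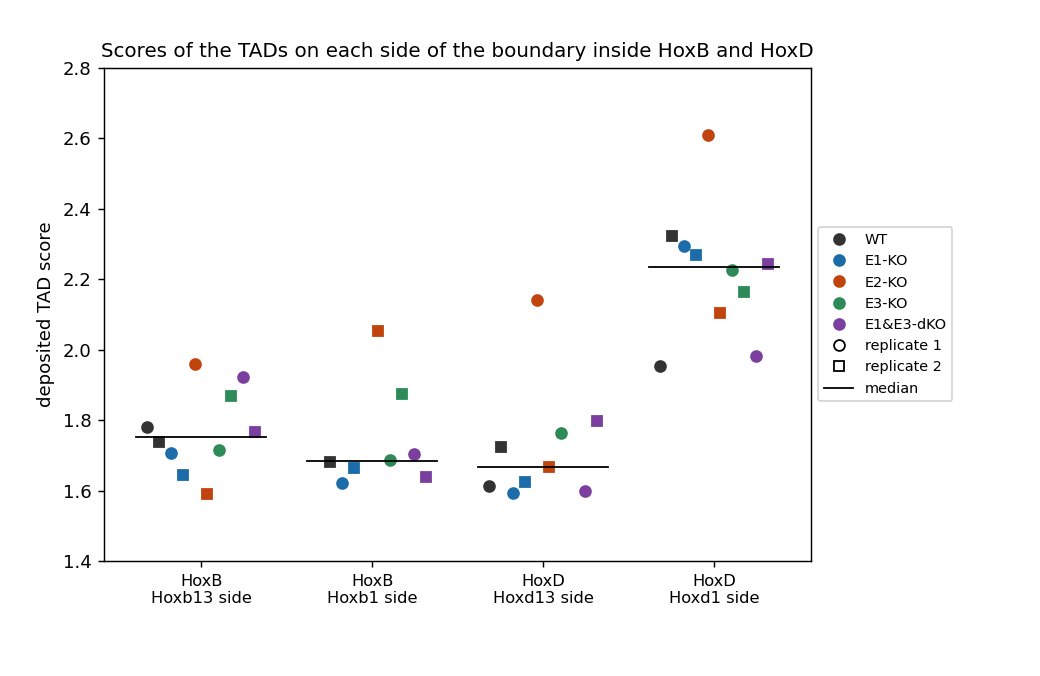
Deposited score of the TAD that meets the boundary inside HoxB or HoxD, on the side of the gene numbered 13 and on the side of the gene numbered 1, for each library (circles replicate 1, squares replicate 2, colour by genotype, line the median). The Hoxd1-side TADs have a median of 2.23 and sit at 1.95 or higher, with WT replicate 1 lowest. Medians on the other 3 sides are 1.75, 1.68 and 1.67. The highest values there are 1.96, 2.05 and 2.14, so the ranges overlap. The 1.96 and the 2.14 are from E2-KO replicate 1.

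HoxB also held a boundary in all 10 libraries, at 96.12 Mb (96.11 to 96.14 Mb), 70 kb from the Hoxb13 end of the 180 kb cluster. The TAD on the Hoxb13 side began at 95.94 Mb in WT, in E1-KO, in E2-KO replicate 1 and in E1&E3-dKO replicate 1. It began at 95.96 Mb in E2-KO replicate 2, at 95.99 Mb in both E3-KO libraries and at 95.64 Mb in E1&E3-dKO replicate 2. Its length was therefore 180 kb in both WT libraries, 180 and 190 kb for E1-KO, 170 and 160 kb for E2-KO, 180 and 500 kb for E1&E3-dKO, and 120 kb in both E3-KO libraries. The E3-KO values lay below all others. This difference was picked after its values were seen, and with 2 libraries against 2 an exact permutation test cannot give a p under 0.333. In the limma fit of TAD length described below, the 50 kb bin at 96.05 to 96.10 Mb differed between E3-KO and WT by -0.23 ± 0.65 (log2, SE), with an adjusted p of 0.906. That fit takes off the median log2 length over the 50 kb bins of each library. Without that step the difference was -0.58 ± 0.44.

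The TAD on the Hoxb1 side started at 96.12 or 96.13 Mb in 8 libraries and was absent from WT replicate 1 and E2-KO replicate 1. Its far end varied. It was 300 kb long in WT replicate 2, 290 kb in both E1&E3-dKO libraries, 460 and 470 kb for E1-KO, 600 kb in E2-KO replicate 2, and 610 and 600 kb for E3-KO. Replicates differed by at most 10 kb wherever both libraries of a genotype had it. E2-KO and E3-KO overlapped at 600 kb, WT and E1&E3-dKO lay within 10 kb of each other, and E1-KO lay between. WT had a single library with this TAD, so its own spread is unknown. In the limma fit the bin at 96.15 to 96.20 Mb was longer in E3-KO by 1.34 ± 0.69 and in E2-KO by 1.22 ± 0.79, with adjusted p of 0.870 and 0.430. The difference was 0.45 ± 0.69 in E1-KO and 0.23 ± 0.69 in E1&E3-dKO, with adjusted p of 0.979 and 0.965. None of these passed the threshold of 0.05 once the library medians were taken off. Fitted without that step, all 5 bins from 96.15 to 96.40 Mb, which lie in this 1 TAD, passed in 3 knockouts. With the medians left in, limma gave log2 differences from WT of 0.63 ± 0.043 (SE) for E1-KO, 1.0 ± 0.049 for E2-KO and 1.01 ± 0.043 for E3-KO, with adjusted p of 0.0310, 0.00254 and 0.0108. E1&E3-dKO differed by -0.049 ± 0.043 (adjusted p = 1). Over the genome 0.679% of bins passed in that fit for E1-KO, 3.84% for E2-KO and 0.526% for E3-KO. With WT and E2-KO at 1 library each here, the fit takes their spread from the other genotypes.

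HoxC had no TAD over the cluster in 9 of 10 libraries. The exception was E2-KO replicate 1, with a TAD from 102.82 to 102.92 Mb that covered 41.7% of the cluster and boundaries inside it at 102.75 and 102.82 Mb. The nearest TAD of 8 libraries ended at 101.81 or 101.82 Mb, 930 kb before the Hoxc13 end, and had a median length of 665 kb (220 to 670 kb). E2-KO replicate 1 had a TAD that began there instead, and E1&E3-dKO replicate 2 had no TAD in the window. The chromosome 15 lists end at 103.485 Mb, before the end of the window, so the far flank was covered in part.

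**Figure D2:**
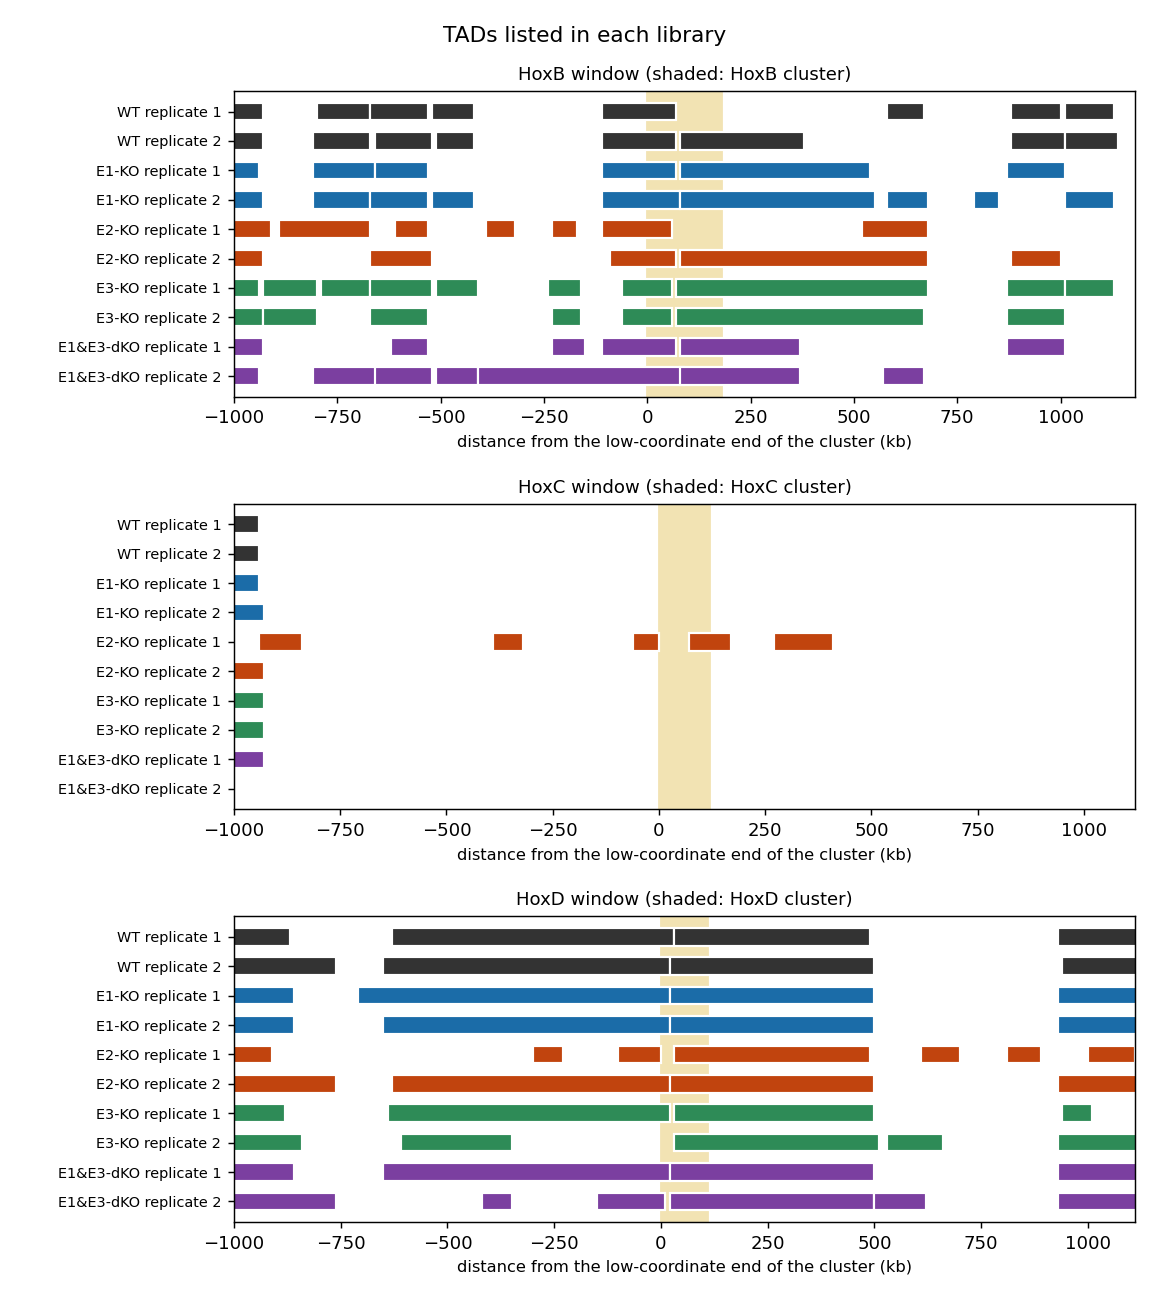
TADs as listed in each of the 10 libraries (rows, coloured by genotype) across the windows of HoxB, HoxC and HoxD, against distance in kb from the low-coordinate end of each cluster (shaded). An end of a TAD falls inside HoxB and HoxD in all 10 libraries, and HoxC lies outside TADs in all libraries but E2-KO replicate 1. Only 1 TAD overlaps HoxB in WT replicate 1 and E2-KO replicate 1, and HoxD in E2-KO replicate 1 and E3-KO replicate 2.

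Boundaries within 20 kb of the position held by most libraries were taken as the same, and a boundary near several such positions counted for each. The windows then held 50 boundaries, of which 5 were found in all 10 libraries, against 4.42% of 24270 boundaries in the genome. They were the boundaries inside HoxB and HoxD, those at 95.12 and 95.52 Mb before HoxB, and that at 75.01 Mb after HoxD. At least 8 libraries held 10 boundaries (20%, against 11.7% in the genome). The other 5 of these lay at 95.38, 96.92 and 97.06 Mb around HoxB, 101.82 Mb before HoxC and 75.43 Mb after HoxD. No boundary lay within 50 kb outside a cluster, apart from 102.92 Mb in E2-KO replicate 1. A single library held 21 (42%, against 37.4%), and 17 of these came from E2-KO replicate 1, among them 9 of the 10 boundaries of HoxC.

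**Figure D3:**
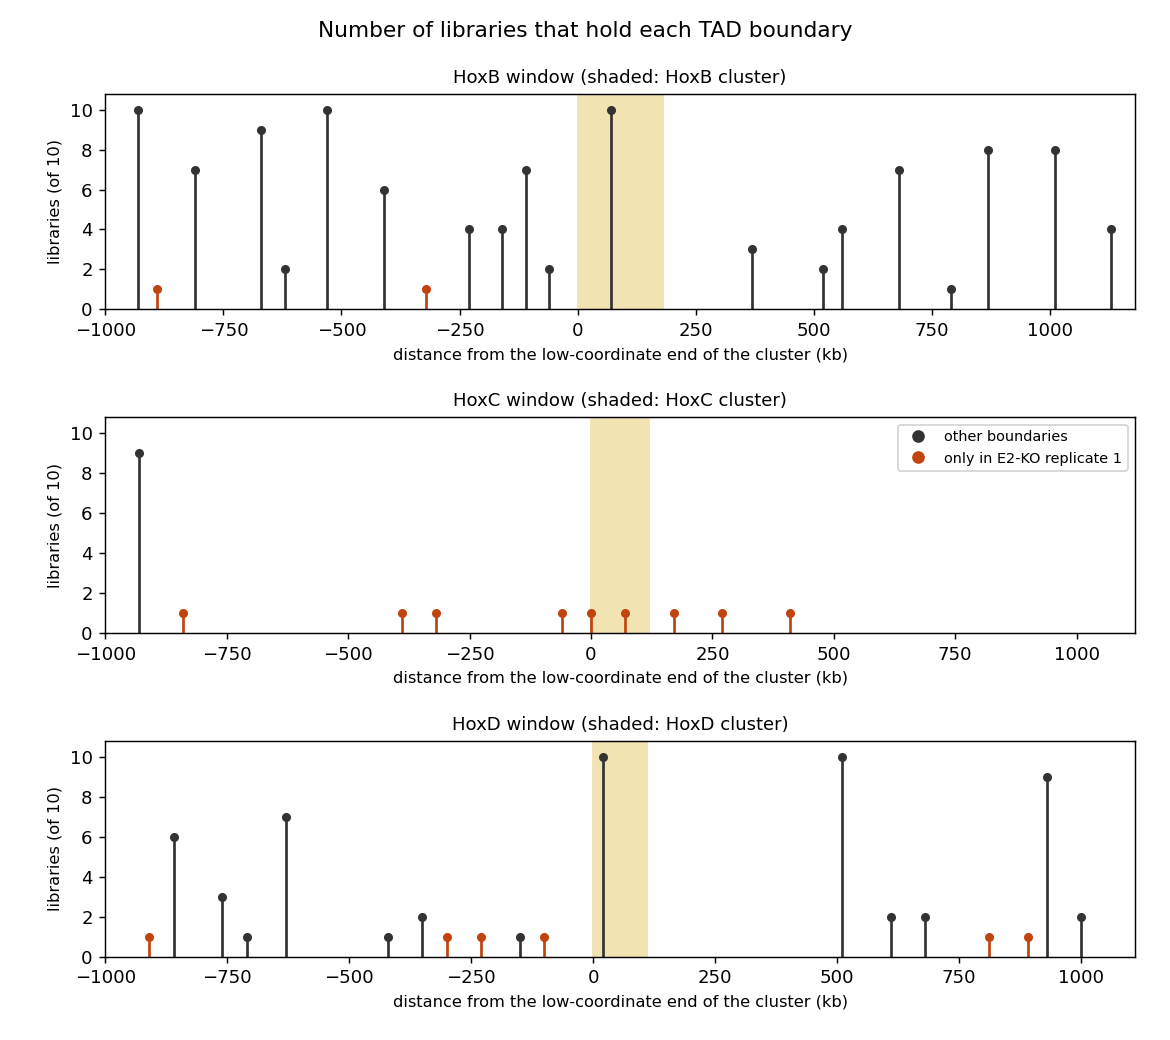
Number of libraries (of 10) that hold each TAD boundary of the HoxB, HoxC and HoxD windows, against distance in kb from the low-coordinate end of the cluster (shaded), with boundaries held by E2-KO replicate 1 alone in orange. The boundaries inside HoxB and HoxD, 70 and 20 kb from that end, reach 10 libraries, and 17 boundaries are orange.

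Both WT libraries shared 15 boundaries of the windows. In E1-KO 0 of the 15 were missing from both libraries (10.9% in the genome), in E2-KO 2 (10.2%), in E3-KO 1 (7.2%) and in E1&E3-dKO 1 (8.88%). The boundary at 97.18 Mb was missing in E2-KO and in E1&E3-dKO, which share the WT libraries as controls, that at 95.24 Mb in E2-KO and that at 95.94 Mb in E3-KO. Of the boundaries shared by both libraries of a knockout, those absent from both WT libraries numbered 0 of 14 in E1-KO (10% in the genome), 0 of 9 in E2-KO (35.8%) and 0 of 7 in E1&E3-dKO (16.6%). In E3-KO 3 of 17 were gained (12.9%), at 95.82, 95.89 and 95.99 Mb. The first 2 were the ends of 1 TAD and were also in E2-KO replicate 1 and E1&E3-dKO replicate 1. The boundary at 95.99 Mb was held by both E3-KO libraries alone. It was the start of the shortened TAD at Hoxb13, which in WT began at the lost 95.94 Mb. The loss and this gain in E3-KO thus describe the same TAD and are not separate changes. All lost and gained boundaries named here lay in the HoxB window. The counts rest on single libraries. Those with a library left out are given without the share in the genome, so they cannot be read as particular to these windows. Without E2-KO replicate 2, 6 boundaries were lost and 24 gained in E2-KO, and without WT replicate 2 4 were lost there. Lost counts rose to 6 and 4 in E1&E3-dKO without its replicate 1 or 2, to 3 in E1-KO without its replicate 2, and to 3 in E3-KO without its replicate 1. Without WT replicate 1, 2 were lost and 2 gained in E1-KO, 1 was gained in E2-KO, and 3 were lost and 5 gained in E3-KO. Gains in E3-KO were also 5 without its replicate 1, those in E1-KO 1 and 2 without its replicate 1 or 2, and those in E1&E3-dKO 4 and 3. Without WT replicate 2, 2 were lost in E3-KO and 1 was gained in E1&E3-dKO.

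Libraries of a genotype shared 53.1% ± 23.8 of the boundaries of the windows (Jaccard index, SD over 5 pairs), and libraries of different genotypes 51.0% ± 16.8 (40 pairs that share libraries). An exact one-sided permutation test over all 945 pairings gave p = 0.243, adjusted p = 0.877. The WT libraries shared 77.8%. As a fraction the difference in means was 0.0213. Without E2-KO replicate 2 it was 0.117 with an exact permutation p of 0.0180 before adjustment, but E2-KO replicate 1 then left the pairs within genotypes and stayed in those between. With both E2-KO libraries left out, an alternative chosen after seeing the data, libraries of a genotype shared 60.3% and libraries of different genotypes 57.1%, with an exact permutation p of 0.162. It turned negative, down to -0.027, when either WT, either E1-KO or the second E3-KO library was left out.

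The windows held 13 TADs in each WT library, 11 and 14 for E1-KO, 15 and 13 for E3-KO, 11 and 13 for E1&E3-dKO, and 19 and 10 for E2-KO. WT values lay inside the range of the knockouts, at 13 ± 0 (SD, n = 2) against 13.25 ± 2.87 (SD, n = 8). The 19 came from E2-KO replicate 1, and without it the difference of knockouts from WT was -0.571 in place of 0.25. HoxB had 8 and 8 TADs in WT against 7.125 ± 1.64 in knockouts, and HoxD 4 and 4 against 4.75 ± 1.16. Because the lists differ in length, the number was also taken per 1000 TADs elsewhere. This gave 4.11 ± 0.608 in WT and 3.24 ± 0.838 in knockouts. At an equal number in a window this value still falls as the list grows. For 4 TADs in HoxD it was 1.48 with a list of 2715 (E1-KO replicate 1). With a list of 4215 (E2-KO replicate 2) the same 4 TADs gave 0.951. The part of list length in the differences and p-values per 1000 was not tested. Mean scores were 1.72 ± 0.0337 and 1.80 ± 0.103. For number, number per 1000, score, log10 length, interactions and boundary sharing, 31 exact permutation tests compared genotypes (one-sided, smallest possible p 0.00106) or WT with all knockouts (two-sided, smallest possible p 0.0222). The smallest p was 0.149 and the smallest adjusted p 0.877, and 0 of the 31 were under 0.05 before adjustment. Score and length of HoxC were not tested, as E1&E3-dKO replicate 2 had no TAD there. Leaving out E3-KO replicate 1 or 2 brought the genotype test of TADs per 1000 to unadjusted p of 0.0254 and 0.0106 in HoxB, and to 0.0497 and 0.0349 over all windows. Leaving out E2-KO replicate 2 brought that of mean score to 0.0159 in HoxB and 0.0127 over all windows, and that of length to 0.0349 in HoxD and 0.0487 over all windows. The library left alone adds nothing to the spread within pairs in these tests. With both E3-KO libraries left out the genotype test of TADs per 1000 gave an unadjusted exact permutation p of 0.0190 in HoxB and 0.0381 over all windows. With both E2-KO libraries left out that of score gave 0.143 and 0.114, and that of length 0.314 in HoxD and 0.267 over all windows.

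Over the 10 libraries the number of TADs in the windows and elsewhere had a Pearson r of 0.714 (permutation p = 0.0944, adjusted 0.189) and a Spearman rho of 0.301 (permutation p = 0.394). Without the 2 libraries farthest from the median, E2-KO replicate 1 and E1&E3-dKO replicate 2, r was -0.034 (exact permutation p = 0.938). E2-KO replicate 1 had both the most TADs in the windows, 19, and the longest list, 7962. E1&E3-dKO replicate 2 had 13 and 4871, close to the 13 and 4859 of E3-KO replicate 2, which was kept. Leaving out E2-KO replicate 1 alone was not tested. Among the 6 libraries whose titles do not start with w326 r was 0.294 (exact permutation p = 0.622), and the 4 with that title were too few.

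TAD length was fitted with limma over 11782 bins of 50 kb across the genome. The value was the log2 length of the TAD over each bin less the median over the bins of that library. There were 36 such bins in the windows, 10 in HoxB, 1 in HoxC and 25 in HoxD. None of the 36 passed an adjusted p of 0.05 for any knockout against WT, and 0 had an unadjusted p under 0.05. In the genome 0.17% of bins passed for E1-KO, 1.01% for E2-KO, 0.0849% for E3-KO and 0.331% for E1&E3-dKO. The smallest adjusted p among the 36 was 0.979 for E1-KO, 0.416 for E2-KO, 0.870 for E3-KO and 0.954 for E1&E3-dKO, each shared by several bins, the bin at 95.05 to 95.10 Mb among them. Across the Hoxd1 side of HoxD, at 74.55 to 74.65 Mb, E1-KO differed from WT by -0.13 ± 0.58 (log2, SE), E2-KO by 0.99 ± 0.58, E3-KO by 0.37 ± 0.58 and E1&E3-dKO by 0.34 ± 0.58. The TAD itself was 460 to 480 kb in all libraries, so these differences were set by the library medians that were taken off. The median difference over the 36 bins was 0.87 in E2-KO against 0.28 over all bins. Without the centring the bins of the windows that passed were the 5 of the Hoxb1-side TAD given above. Without E2-KO replicate 2, which leaves E2-KO replicate 1 alone, 16 passed in E2-KO, against 61.3% of the bins of the genome tested in that fit. In simulated data of this size the fit found 15.3% of changes of log2 1 and 62.2% of changes of log2 3 for E1-KO. The simulated bins were drawn independently, without the shifts in median between libraries that centring takes off. In the real data centring raised the SE for E1-KO at 96.15 to 96.20 Mb from 0.043 to 0.69. These shares therefore need not hold for the real fit and may be too high.

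Of the 100 listed interactions, 27 spanned less than 2 Mb (27%, against 22.5% of all 17029) and rested on 4 to 31 reads, while the other 73 rested on 2 to 4 reads, and 51 spanned 20 Mb or more. After merging pairs whose ends lay within 1 bin there were 90, of which 6 were listed in 2 or more libraries. WT libraries listed 10 and 3, E1-KO 16 and 2, E3-KO 7 and 5, E2-KO 19 and 3, and E1&E3-dKO 3 and 32. E1-KO replicate 1 had 16 of the 27 near pairs, against 787 of 3825 near pairs in the genome. E2-KO replicate 1 and E1&E3-dKO replicate 2 had 18 and 31 of the 73 far ones, and their lists held 3497 and 6014 of all 17029 interactions. The recovered depth was highest in E1-KO replicate 1. It was lowest in E2-KO replicate 1, which had the most near pairs in the genome, 939. The part of depth in these numbers was not tested. WT averaged 6.50 ± 4.95 (n = 2) and the knockouts 10.9 ± 10.6 (n = 8), with an exact two-sided permutation p of 0.667.

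At HoxD a near pair joined the cluster to the far end of its Hoxd1-side TAD in 2 libraries. E1-KO replicate 1 listed 74.545 with 74.985 Mb at 10 reads, where the background of its list predicts 0.704. E3-KO replicate 1 listed 74.555 with 74.985 Mb at 11 reads against 0.769 predicted. Both ends fall within 25 kb of the ends of that TAD, which 10 of 10 libraries held. The predicted value is the Poisson mean that gives the deposited p at the deposited count.

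At HoxB a pair joined the Hoxb1 side of the cluster to the flank in both E1-KO libraries. It was 96.145 with 96.415 Mb at 16 reads against 1.90 predicted in replicate 1, and 96.155 with 96.435 Mb at 9 reads against 0.493 in replicate 2. These lie 20 kb apart at the far end, so they did not count as the same. WT replicate 1 listed 96.275 with 96.415 Mb at 15 reads against 2.03, with the same far bin but an end beyond the cluster. The far bins lie next to the boundary at 96.42 Mb, which WT replicate 2 and both E1&E3-dKO libraries held and no E1-KO library did. At the edge of the window 94.975 with 95.095 or 95.115 Mb was listed in WT replicate 1, E1-KO replicate 1 and E3-KO replicate 1, at 16 to 24 reads.

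At HoxC, where TADs were missing, near pairs were listed all the same. E1-KO replicate 1 joined 102.825 with 103.015 Mb at 21 reads against 2.11 predicted, and E1&E3-dKO replicate 2 joined 102.825 with 103.005 Mb at 8 reads against 0.407. E1-KO replicate 1 also listed 102.795 with 103.005 Mb at 13 reads. From the same far bin a second pair led away from the cluster, 103.015 with 103.135 or 103.145 Mb, in WT replicate 1 (18 reads), E1-KO replicate 1 (17 and 19) and E2-KO replicate 2 (12). A list holds only pairs past its threshold, so a pair missing from a library is not shown to be weaker there, and such differences between genotypes were not tested.

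**Figure D4:**
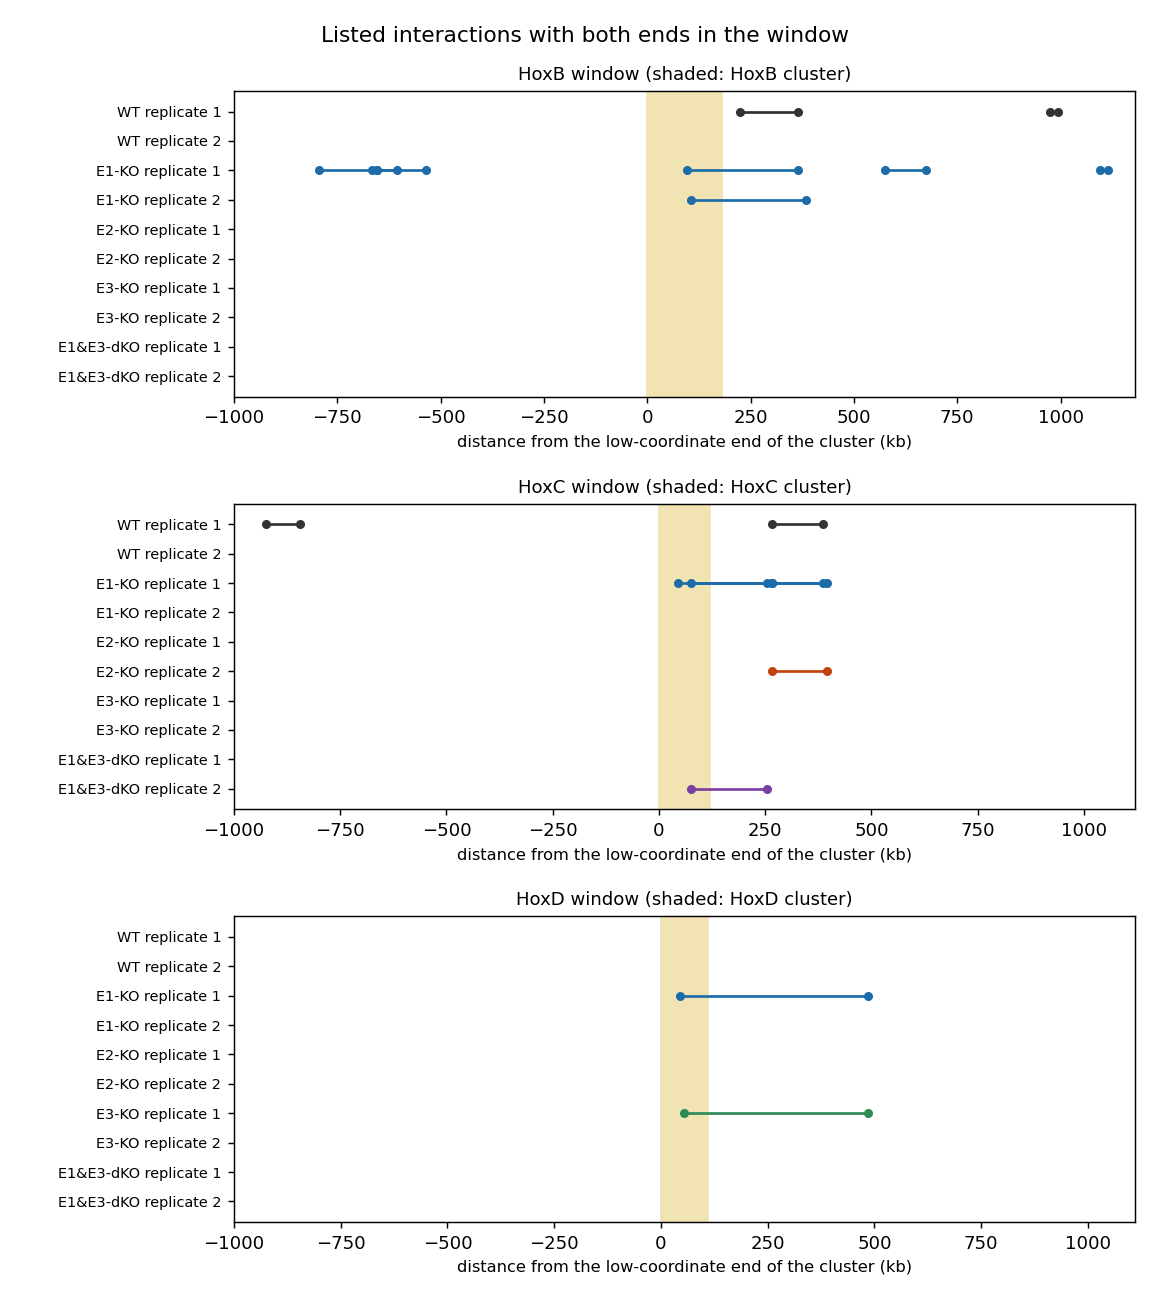
Listed interactions with both ends in a window, drawn as lines between their 10 kb bins in each library (rows, coloured by genotype), against distance in kb from the low-coordinate end of the cluster (shaded). HoxD shows a single pair type, in E1-KO replicate 1 and E3-KO replicate 1, and E1-KO replicate 1 has most lines at HoxB and HoxC.

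Counting pairs of any distance, 13 interactions had an end inside a cluster, 5 in HoxB, 4 in HoxC and 4 in HoxD. The far ones joined HoxB to 51.585 Mb (E2-KO replicate 1, 4 reads) and to 117.385 and 115.155 Mb (E1&E3-dKO replicate 2, 3 reads each), HoxC to 76.025 Mb (WT replicate 1, 4 reads) and HoxD to 169.485 and 18.195 Mb (E3-KO replicates 1 and 2, 3 reads each). Each was listed in 1 library. The far pair found in 2 libraries was 89.595 with 103.445 Mb beyond HoxC, at 4 reads in E3-KO replicate 1 and 3 in E1&E3-dKO replicate 2. Far pairs from the flanks were among those with the smallest deposited p. In the HoxD window E1&E3-dKO replicate 2 listed 75.115 with 172.215 Mb and 74.245 with 103.825 Mb at 4 reads each (deposited p of 3.47e-14 and 5.05e-12), and E2-KO replicate 1 listed 64.495 with 74.775 Mb at 3 reads (1.30e-10). In the HoxC window they were 34.835 with 103.065 Mb in WT replicate 1 at 4 reads (1.29e-12) and 18.095 with 101.995 Mb in E3-KO replicate 2 at 3 reads (7.32e-11). The near pair with the smallest deposited p was 94.975 with 95.095 Mb before HoxB, in E1-KO replicate 1, at 24 reads (2.66e-16).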

How the data were processed

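Exo-Hi-C was done in 10 libraries of mouse embryonic stem cells. The submitters' processing notes name HiC-Pro 2.10.0, HOMER without a version, and the build mm9; replicates were not pooled. The deposited interaction lists give, for pairs of 10 kb bins, a count of reads, a p-value, an adjusted p-value that never exceeds 0.01, and the bias factor of either bin, a ratio to an average bin. The deposited TAD lists give a score of at least 1.5 whose formula is not given in the sources used here. The list of WT replicate 2 repeats each pair in reverse (932 lines), and the 466 pairs were counted once.

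Windows, members and lists were chosen with earlier results of these data known. Positions are mm9. Boundaries less than 25 kb (20 kb at this bin size) from the position held by most libraries were grouped with it. A lost boundary was held by both libraries of WT and absent from both of the knockout, and a gained one the reverse. Depth and predicted reads are Poisson means solved from the deposited p-values and counts, divided by the bias factors for depth; whether the lists used that formula was not tested. Exact permutation tests (SciPy 1.17.1) ran over 945 pairings of the libraries (spread within pairs) or 45 choices of 2, with Benjamini-Hochberg adjustment over 31 tests. TAD length was tested with limma 3.58.1 (R 4.3.3) in bins with a TAD in at least 8 libraries and in each genotype. The scripts were tested on simulated data. Named were TADs over the clusters, boundaries inside or within 50 kb of them, those in at least 8 libraries or lost or gained, interactions with an end in a cluster, shared interactions, the bins of the clusters, the bin with the smallest adjusted p per contrast and the 3 interactions with the smallest p per window. Alternatives covered the flank, score and p thresholds, equal list lengths, boundary tolerance, bin size, title group, replicate block each library left out and, added after seeing the data, both libraries of E2-KO or E3-KO left out.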

Additional observations from a re-analysis of the deposited data

How the results depend on the processing

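In the main settings no test was past its threshold, so the sign of these differences was not established. Counts of boundaries lost or gained under other settings are given here without the share in the genome. Knockouts minus WT in TAD number changed sign in HoxB with a 0.5 Mb flank (0.25) and with scores of at least 2 (1.0), in HoxC and in all windows among libraries not titled w326 (-0.2 in both), and with equal list lengths in HoxD (-0.5) and all windows (-1.375). Per 1000 TADs it changed sign with scores of at least 2 in HoxB (1.16), HoxC (0.0278), HoxD (0.757) and all windows (1.94). In HoxC it was 0.0629 with a 0.5 Mb flank, 0.138 with equal lists, 0.0787 for TADs centred in the window and 0.00884 among w326 libraries, and among the others 0.115 in HoxD and 0.0147 over all windows. Those others gave -0.042 for score in HoxD, and -0.0037 and -0.00037 for log10 length in HoxB and all windows. For TADs centred in the window the exact permutation test of genotype for score gave p of 0.0148 in HoxB and 0.0423 over all windows. The interaction difference was -1.25 with equal lists and -1.0 among w326 libraries. Boundary sharing was -0.014 at 50 kb.

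Leaving out 1 library at a time gave differences in TAD number of -0.143 to 0.571 in HoxC and -0.571 to 0.714 over all windows, and per 1000 of -0.074 to 0.0159 in HoxC and -0.259 to 0.00551 in HoxD. Score in HoxD ran from -0.021 to 0.137, log10 length over all windows from -0.019 to 0.0602 and sharing from -0.027 to 0.117. The exact permutation p of genotype ran from 0.0106 to 0.447 (HoxB) and 0.0349 to 0.421 (all) per 1000, 0.0159 to 0.351 and 0.0127 to 0.412 for score, and for length 0.0349 to 0.911 (HoxD) and 0.0487 to 0.944 (all). Boundaries lost ran from 0 to 3 in E1-KO, 3 to 6 in E2-KO, 1 to 3 in E3-KO and 1 to 6 in E1&E3-dKO, and gained from 0 to 2, 0 to 24, 3 to 5 and 0 to 4. Bins called in E2-KO ran from 0 to 16. With both E3-KO libraries left out, chosen after seeing the data, the genotype p per 1000 was 0.0190 in HoxB and 0.0381 over all windows, and with both E2-KO libraries left out no test of genotype or sharing was under 0.05.

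With a tolerance of 10 or 50 kb or equal lists, 1 boundary was gained in E1-KO. At 50 kb 1 was lost in E2-KO, 0 in E3-KO and 0 in E1&E3-dKO, and 1 gained in E3-KO. Equal lists left 1 gained in E3-KO and 0 lost in E1&E3-dKO. Scores of at least 2 left 0 lost in any of E2-KO, E1&E3-dKO and E3-KO, 1 gained in E2-KO and E1&E3-dKO and 0 in E3-KO, and a boundary inside or beside HoxB in 1 library, HoxC in 0 and HoxD in 8. Without centring, 5 bins, all in the Hoxb1-side TAD, were called in each of E1-KO, E2-KO and E3-KO. Score and length at scores of at least 2 gave no value, as too few TADs were left. The causes were not tested.

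Replicate numbers did not pair the libraries: over 10 pairs of genotypes the deviations correlated from -0.122 to 0.0775. With the replicate block no call changed, with exact permutation p for genotype from 0.158 to 1 and 0 bins called by limma. The few reads per pair and the unknown library totals limit what absent interactions can show.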
